A study of Mus musculus with 8 samples.

Results

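Late cornified envelope (Lce), small proline-rich (Sprr), loricrin (Lor) and involucrin (Ivl) genes were examined in the skin of mice given MC903 plus phytic acid or MC903 alone. Members were the genes whose name begins with Lce or Sprr and a digit, together with Lor, Ivl, Kprp, Crct1, Lelp1, Smcp and Prr9. This gave 44 of 21885 genes, of which 14 were Lce1, 6 Lce3, 2 Sprr1 and 12 Sprr2 genes and 10 lay outside these subfamilies. Expression was measured by RNA sequencing in 8 skin libraries, 4 per group. MC903 (calcipotriol) is a vitamin D analogue used to produce a dermatitis-like state in mice, and phytic acid is inositol hexaphosphate. All 8 libraries came from MC903-treated skin, titled control where no phytic acid was given, so neither group is untreated skin. The sources used here do not state strain, age, dose, time or body site. They do not state whether each library came from its own mouse either, so the p-values reflect spread among these libraries and that spread may be technical.

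Keratinocytes of the outer epidermis replace their plasma membrane with the cornified envelope, a sheath of proteins that transglutaminases cross-link to each other. Involucrin is an early scaffold of this sheath, loricrin makes up much of its mass, and Sprr proteins act as short cross-bridges between other precursors. Lce proteins are small precursors that are added late. In human skin, LCE3 and SPRR genes are known to be induced in injured or psoriatic epidermis, whereas LCE1 genes belong to ordinary cornification.

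The 44 genes lie in the epidermal differentiation complex, within 939 kb of chromosome 3, between Lor (chr3:92080271-92083142) and Lce1m (chr3:93017810-93019060). Positions are from GENCODE gene models on GRCm38, which is mm10 under its other name. The deposited table holds 5 further genes in this stretch. All members are annotated as protein-coding except Sprr2g, a polymorphic pseudogene in that annotation. Sequences before the start sites of 8 members are shown because they cover both directions of change and both large families. Each is a stretch just upstream of the RefSeq start site in GRCm38.p6, written 5′ to 3′ on the strand of the gene. Capitals mark matches, on either strand, to the AP-1 site TGACTCA, to TATAAA or to ATAAAA.
Lor: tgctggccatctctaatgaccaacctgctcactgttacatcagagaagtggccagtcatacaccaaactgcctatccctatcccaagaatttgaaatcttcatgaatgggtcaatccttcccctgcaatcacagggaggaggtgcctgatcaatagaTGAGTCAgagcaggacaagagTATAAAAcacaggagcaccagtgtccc
Ivl: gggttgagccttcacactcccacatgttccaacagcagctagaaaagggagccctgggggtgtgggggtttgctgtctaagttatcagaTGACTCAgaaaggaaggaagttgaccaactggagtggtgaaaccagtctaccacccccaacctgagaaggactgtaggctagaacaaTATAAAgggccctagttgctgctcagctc
Lce1m: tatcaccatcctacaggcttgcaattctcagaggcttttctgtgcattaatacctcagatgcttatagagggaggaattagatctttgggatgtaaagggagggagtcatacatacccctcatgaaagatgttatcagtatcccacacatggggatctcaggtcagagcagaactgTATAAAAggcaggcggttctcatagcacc
Lce1e: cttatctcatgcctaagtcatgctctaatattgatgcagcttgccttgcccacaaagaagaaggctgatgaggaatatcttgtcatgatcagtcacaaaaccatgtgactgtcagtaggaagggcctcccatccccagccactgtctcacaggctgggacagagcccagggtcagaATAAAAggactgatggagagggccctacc
Lce3d: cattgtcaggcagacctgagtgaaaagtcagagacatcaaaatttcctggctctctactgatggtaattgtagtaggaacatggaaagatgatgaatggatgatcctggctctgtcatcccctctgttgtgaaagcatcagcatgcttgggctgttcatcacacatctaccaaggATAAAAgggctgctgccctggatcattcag
Sprr1a: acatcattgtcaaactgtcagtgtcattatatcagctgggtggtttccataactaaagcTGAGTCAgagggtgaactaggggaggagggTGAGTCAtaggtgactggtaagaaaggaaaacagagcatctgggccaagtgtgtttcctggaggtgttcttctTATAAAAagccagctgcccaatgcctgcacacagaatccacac
Sprr1b: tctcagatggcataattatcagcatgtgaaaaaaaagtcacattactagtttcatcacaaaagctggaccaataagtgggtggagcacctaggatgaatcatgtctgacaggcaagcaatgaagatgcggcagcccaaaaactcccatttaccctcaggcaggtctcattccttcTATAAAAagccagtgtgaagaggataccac
Sprr2d: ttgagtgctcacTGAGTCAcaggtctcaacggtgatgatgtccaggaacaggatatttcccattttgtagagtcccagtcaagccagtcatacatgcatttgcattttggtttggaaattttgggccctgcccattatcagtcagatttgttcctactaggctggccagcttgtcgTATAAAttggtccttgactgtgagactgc
These windows span chr3:92083143-92083347 for Lor, chr3:92573736-92573940 for Ivl, chr3:93019062-93019266 for Lce1m, chr3:92709075-92709279 for Lce1e, chr3:92485882-92486086 for Sprr1a and chr3:92438780-92438984 for Sprr1b, all on the minus strand. They span chr3:92957185-92957389 for Lce3d and chr3:92338935-92339139 for Sprr2d on the plus strand.

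Levels are in FPKM, which scales fragments by gene length and library size. Library totals recovered from them were 38310033 to 42997272 reads with phytic acid and 31676934 to 37639476 with MC903. All 8 listed basal keratinocyte genes passed the expression filter, and their sums were 2632 to 3112 FPKM with phytic acid, against 4385 to 7942 FPKM in MC903 skin, without overlap. Much of this gap was Krt14, at 1161 to 1730 FPKM with phytic acid and 3061 to 6642 FPKM in MC903 skin. Of the 8 genes, 2 rose and 1 fell, with a median log2 fold change of -0.13, so the sum does not describe the list. MC903 replicate 3 stood apart: all 13 measured inner root sheath and hair genes were highest there, and their summed level was 3819 FPKM. The same sum was 4.16 to 5.28 FPKM with phytic acid and 2.27 to 59.3 FPKM in the other MC903 libraries. Skeletal muscle genes were higher with phytic acid in 9 of 10, with sums of 8749 to 10199.7 FPKM with phytic acid, against 4105 to 4810.1 FPKM in MC903 skin. Adipocyte genes were higher in 3 of 6 tested. Sums over all 7 listed were 559 to 1053 FPKM with phytic acid, against 182 to 504 FPKM in MC903 skin. Of 7 tested leukocyte genes, 4 were higher and 1 lower. Sums over all 9 listed were 815 to 1137 FPKM with phytic acid, against 494 to 858 FPKM in MC903 skin. Fibroblast genes were higher in 1 of 6, with sums of 456 to 876 FPKM with phytic acid, against 378 to 439 FPKM in MC903 skin. Of 7 sebaceous gland genes, 2 were higher and 1 lower, with sums of 529.7 to 1411 FPKM with phytic acid, against 656 to 785 FPKM in MC903 skin. The part of these cells in the results below was not tested, and in whole skin fewer cells of a type and less RNA per cell cannot be told apart.

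With phytic acid, every tested Lce3, Sprr1 and Sprr2 gene fell, and Lor, Ivl, Lce6a and 5 of the Lce1 genes rose. Of the 44 members, 39 passed the expression filter (at least 1 FPKM in at least 4 libraries) and were tested with limma on log2(FPKM + 1). At an adjusted p under 0.05, 8 members rose, where 14.2% of all 12165 tested genes did. In the other direction 18 members fell, where 11.6% of all tested genes did, and 25.8% of all tested genes were called in either direction. Over all genes 1722 rose and 1412 fell, and with median-of-ratios scaling 1469 rose and 1828 fell. The median log2 fold change (MC903 plus phytic acid minus MC903) was 0.54 over 14 Lce1 genes, -2.74 over 6 Lce3 genes, -2.47 over 2 Sprr1 genes and -3.28 over 10 Sprr2 genes, against 0.05 over all tested genes. The 18 lower calls were 17 or 18 in each of 16 alternative fits, while the 8 higher calls were 4 with no filter, 5 with median-of-ratios scaling, 3 without MC903 replicate 1, 4 without MC903 replicate 4 and 4, 4, 4 and 5 without phytic acid replicates 1 to 4 in turn. Lce3a, Lce3b, Lce3e, Lce3f, Sprr2a2, Sprr2f and Sprr2i passed the filter only through their level in MC903 skin. The counts and medians above are thus a description.

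**Figure D1:**
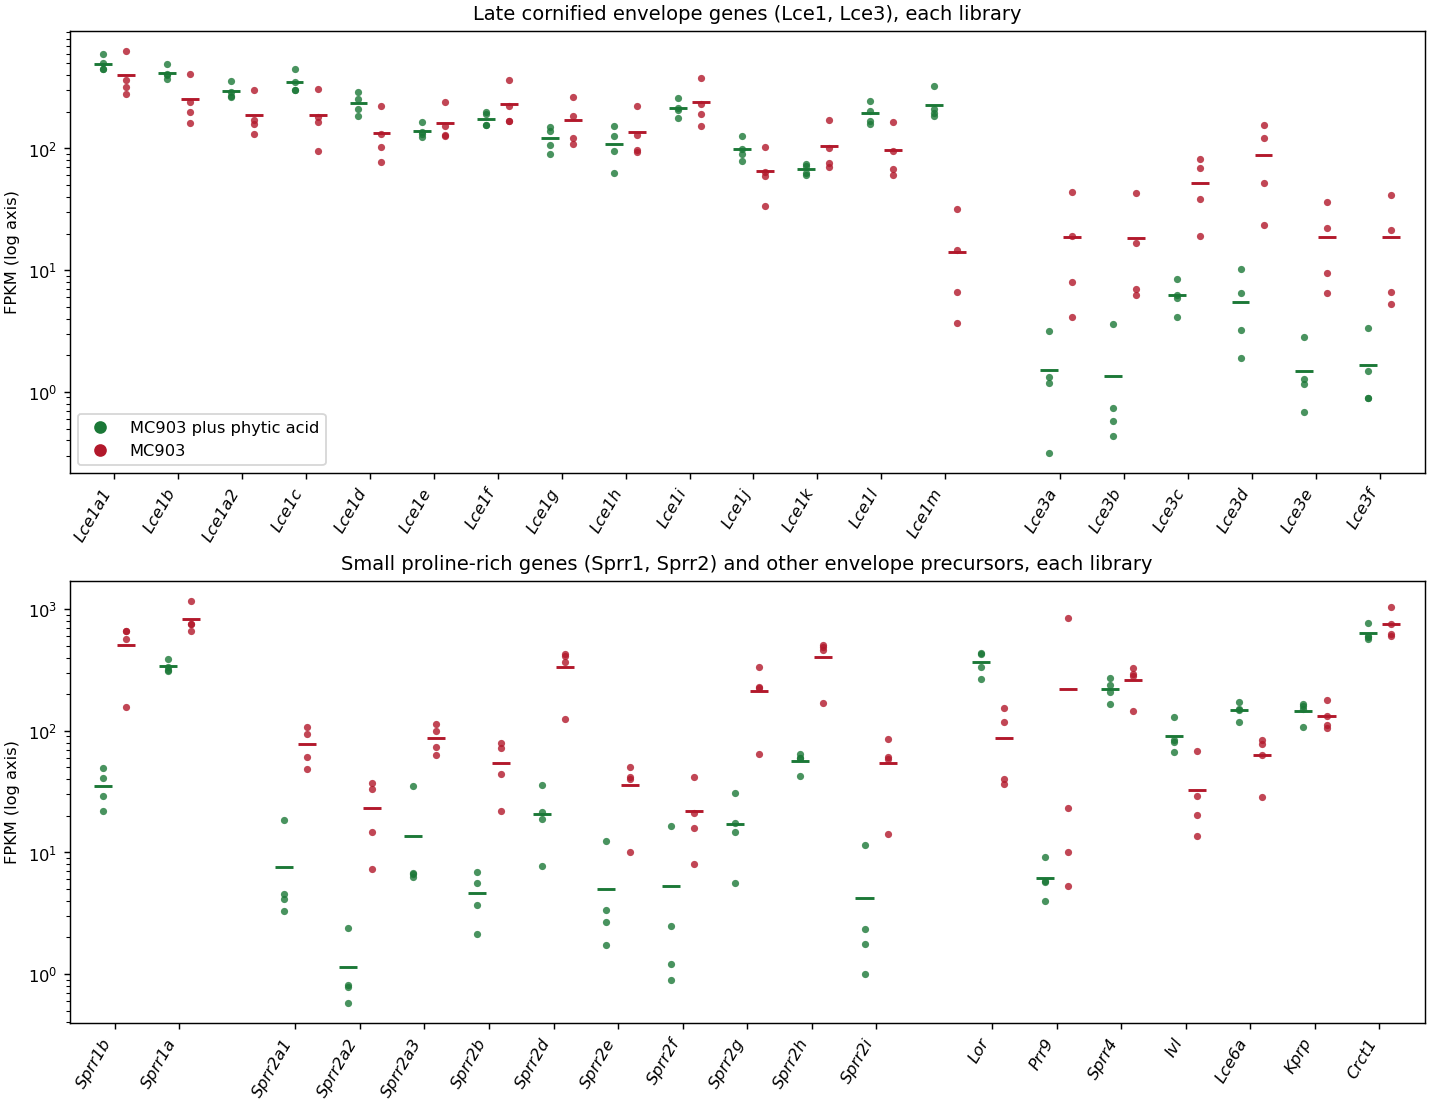
FPKM (log axis) of the 39 tested members in each library, with MC903 plus phytic acid left of MC903, and a bar for each mean. The groups are apart for all Lce3 and Sprr1 genes, Lor, Lce6a and Lce1m, and overlap for the other 13 Lce1 genes.

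Transcripts of loricrin, the bulk protein of the envelope, and of involucrin, its early scaffold, were both called higher. Lor stood at 338, 434, 430.1 and 268 FPKM in phytic acid replicates 1 to 4, against 39.98, 119, 155 and 36.4 FPKM in MC903 replicates 1 to 4. Every phytic acid library was above every MC903 library, although the MC903 libraries differed among themselves by 4.27-fold. Groups did not overlap, with phytic acid higher, for 14.3% of all tested genes. The log2 fold change of Lor was 2.30 ± 0.45 (SE, adjusted p = 0.00609 by limma). Ivl stood at 131, 67.2, 84.3 and 80.7 FPKM in phytic acid replicates 1 to 4, against 20.4, 29.0, 67.9 and 13.7 FPKM in MC903 replicates 1 to 4. Its groups overlapped, since MC903 replicate 3 lay just above phytic acid replicate 2. The log2 fold change of Ivl was 1.65 ± 0.42 (SE, adjusted p = 0.0184 by limma). By limma the call of Ivl ended without phytic acid replicate 1 (adjusted p = 0.0502) or MC903 replicate 1 (adjusted p = 0.0551).

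The ratio of Lor to Ivl in FPKM was 2.58 to 6.46 with phytic acid, against 1.96 to 4.10 in MC903 skin, and these ranges overlapped. Of 5 tested suprabasal keratinocyte genes, 3 rose and 1 fell, with a median log2 fold change of 1.16. Among them the suprabasal keratin gene Krt77 had a log2 fold change of 6.38 ± 0.70 (SE), and Dsc1, which encodes desmocollin 1, had one of -0.68 ± 0.15 (SE). The 8 basal keratinocyte genes went both ways: 2 rose, 1 fell and the median was -0.13. Krt15, a basal keratin gene, had a log2 fold change of 1.99 ± 0.20 (SE). Krt14, the gene of highest mean level in that list, had one of -1.91 ± 0.28 (SE) and averaged 1357 ± 254 FPKM with phytic acid and 5275 ± 1619 FPKM in MC903 skin (SD, n = 4 each). The part of the basal sum in the results for Lor and Ivl was not tested.

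The Lce1 genes had the highest summed level of the 4 subfamilies in phytic acid skin, and they did not all move one way. Their summed FPKM was 2677, 3196, 3875 and 2851 in phytic acid replicates 1 to 4, against 2145, 3799.9, 1954 and 1633 in MC903 replicates 1 to 4. MC903 replicate 2 lay within the phytic acid range, so the sums overlapped. Of 14 members, 5 rose, 0 fell and 9 were not called, where 14.2% of all tested genes rose and 11.6% fell. The log2 fold changes ran between -0.53 (Lce1k) and 4.27 (Lce1m). Fold changes were above 0 for 8 members and below 0 for 6. The count of 5 rested on the setting: it was 1 with no filter and 2 with median-of-ratios scaling or centred on basal keratinocyte genes. Leaving out MC903 replicate 2 gave 8 calls, leaving out MC903 replicate 3 gave 3, and leaving out MC903 replicate 1 or 4 gave 1. Without phytic acid replicates 1 to 4 in turn it was 2, 1, 1 and 2.

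Lce1m had the largest fold change of the 39 tested members in the fit with all libraries. It stood at 197, 209.7, 325 and 184 FPKM in phytic acid replicates 1 to 4, against 6.62, 14.8, 31.5 and 3.69 FPKM in MC903 replicates 1 to 4. All phytic acid libraries were far above all MC903 libraries, among which replicate 3 was highest. The log2 fold change was 4.27 ± 0.51 (SE, adjusted p = 0.00076 by limma). Of the summed Lce1 FPKM, Lce1m made up 6.45% to 8.38% with phytic acid, against 0.226% to 1.61% in MC903 skin. Without it, the Lce1 sum was 2921 ± 469 FPKM with phytic acid and 2369 ± 967 FPKM in MC903 skin (SD, n = 4 each).

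Lce1l, Lce1c, Lce1b and Lce1d rose by smaller amounts. Lce1l stood at 158, 201, 246 and 169.5 FPKM in phytic acid replicates 1 to 4, against 67.4, 166, 94.5 and 60.2 FPKM in MC903 replicates 1 to 4, a log2 fold change of 1.09 ± 0.29 (SE, adjusted p = 0.0243 by limma). Lce1c stood at 303, 352, 447 and 304 FPKM in phytic acid replicates 1 to 4, against 165, 310.5, 181 and 95.5 FPKM in MC903 replicates 1 to 4, a log2 fold change of 1.003 ± 0.31 (SE, adjusted p = 0.039 by limma). In both genes MC903 replicate 2 reached into the phytic acid range. Lce1b averaged 420.5 ± 53.8 FPKM with phytic acid and 254 ± 109.6 FPKM in MC903 skin (SD, n = 4 each). Lce1d averaged 235 ± 47.0 FPKM with phytic acid and 134 ± 63.8 FPKM in MC903 skin (SD, n = 4 each). Of 8 fits that each left out 1 library, Lce1l was called in 4, Lce1c in 2, Lce1b in 1 and Lce1d in 1, while Lce1m was called in all 8.

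The other 9 Lce1 genes were not called. Lce1a1, the gene of the subfamily with the highest mean level, stood at 448, 499, 594 and 452 FPKM in phytic acid replicates 1 to 4, against 364, 628, 318 and 281 FPKM in MC903 replicates 1 to 4. MC903 replicate 2 was the highest of all 8 libraries, and the log2 fold change was 0.39 (95% confidence interval -0.15 to 0.92). Without MC903 replicate 2, Lce1a1 passed the test with a log2 fold change of 0.63 (adjusted p = 0.028 by limma). Lce1e had a log2 fold change of -0.19 (95% confidence interval -0.64 to 0.27), and Lce1i had -0.09 (95% confidence interval -0.66 to 0.47). Lce1f, Lce1g, Lce1h and Lce1k lay between -0.53 and -0.29, and Lce1a2 and Lce1j at 0.70 and 0.68. Across the subfamily, 13 of 14 genes were highest in replicate 2 among the MC903 libraries. Among the phytic acid libraries, 12 of 14 were lowest in replicate 1 and 12 of 14 were highest in replicate 3.

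All 6 Lce3 genes, the subfamily known in human skin for induction by injury, fell. Lce3d stood at 1.90, 3.24, 6.44 and 10.1 FPKM in phytic acid replicates 1 to 4, against 52.3, 122, 23.6 and 157 FPKM in MC903 replicates 1 to 4. Lce3c stood at 4.16, 6.26, 5.95 and 8.48 FPKM in phytic acid replicates 1 to 4, against 38.2, 69.6, 19.3 and 81.7 FPKM in MC903 replicates 1 to 4. Neither gene overlapped between the groups, although the MC903 libraries differed by 6.65-fold for Lce3d and 4.24-fold for Lce3c. The log2 fold change of Lce3d was -3.65 ± 0.60 (SE, adjusted p = 0.00274 by limma). That of Lce3c was -2.72 ± 0.40 (SE, adjusted p = 0.00175 by limma).

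The other Lce3 genes were at lower levels. Lce3e averaged 1.49 ± 0.930 FPKM with phytic acid and 18.6 ± 13.5 FPKM in MC903 skin (SD, n = 4 each), with a log2 fold change of -2.77 ± 0.47 (SE, adjusted p = 0.00328 by limma). Lce3b averaged 1.35 ± 1.52 FPKM with phytic acid and 18.3 ± 17.1 FPKM in MC903 skin (SD, n = 4 each), with a log2 fold change of -2.82 ± 0.57 (SE, adjusted p = 0.00755 by limma). Lce3a rested on few reads, 7, 28, 28 and 71 in phytic acid replicates 1 to 4, against 138, 338, 85 and 894 in MC903 replicates 1 to 4. With phytic acid, Lce3b had 10 to 83 reads, Lce3e 17 to 70 and Lce3f 21 to 84. Log2 fold changes of the 6 ran between -3.65 and -2.55, and the groups did not overlap for any of the 6, where 13.0% of all tested genes were lower without overlap. Lce3a, Lce3b, Lce3e and Lce3f passed the filter only through their MC903 level, so that share is no test of this count. Among the phytic acid libraries all 6 were lowest in replicate 1 and highest in replicate 4, and among the MC903 libraries all 6 were highest in replicate 4 and 5 were lowest in replicate 3. Transcripts of Lce3c, Lce3d, Lce3e and Lce3f share 28.0%, 38.6%, 41.1% and 45.6% of their 75-base stretches with other genes, so their separate values are uncertain. Lce3a and Lce3b share 9.5% and 6.1%.

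Summed Lce3 FPKM was 8.38, 13.6, 16.9 and 31.6 in phytic acid replicates 1 to 4, against 121, 271, 65.8 and 403 in MC903 replicates 1 to 4. As a percentage of the Lce1 sum of the same library this was 0.313% to 1.11% with phytic acid, against 3.37% to 24.7% in MC903 skin. The lowest MC903 library was thus above the highest phytic acid library in Lce3 relative to Lce1. Lce6a, a late cornified envelope gene outside both subfamilies, stood at 118, 152, 173 and 149.6 FPKM in phytic acid replicates 1 to 4, against 63.7, 84.1, 78.5 and 28.7 FPKM in MC903 replicates 1 to 4. Its groups did not overlap, and the log2 fold change was 1.30 ± 0.30 (SE, adjusted p = 0.0132 by limma).

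**Figure D2:**
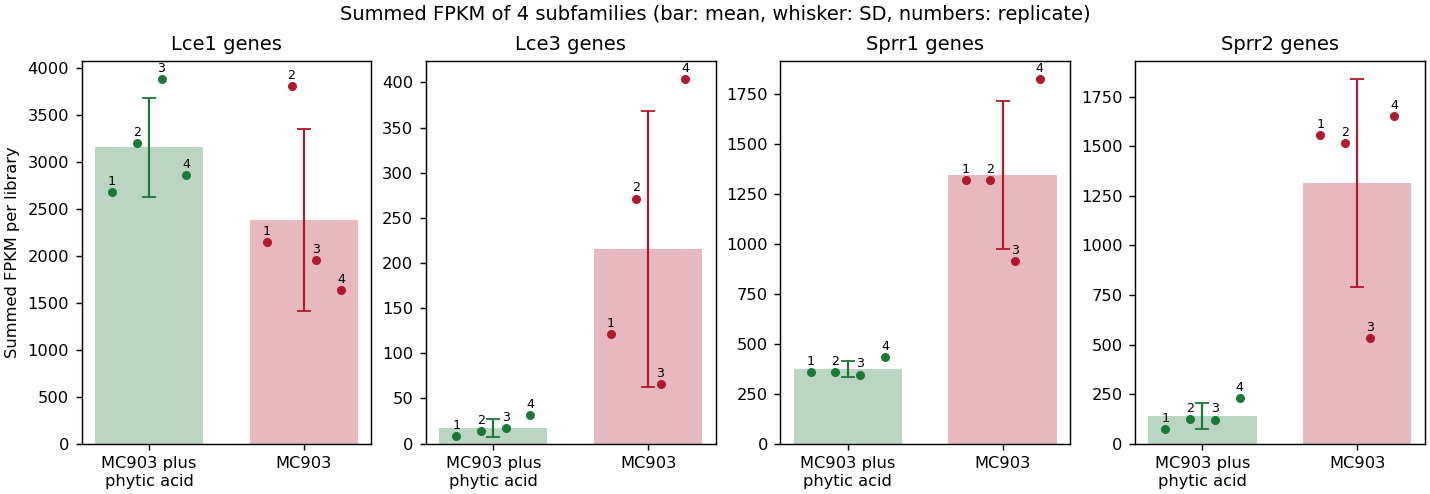
Summed FPKM per library of the Lce1, Lce3, Sprr1 and Sprr2 genes, with MC903 plus phytic acid left of MC903, each with its mean and SD. Lce3, Sprr1 and Sprr2 sums of the phytic acid libraries all lie below those of the MC903 libraries, while the Lce1 sums overlap.

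The Sprr2 subfamily, short cross-bridging precursors, had the lowest median of the 4 on the log2(FPKM + 1) scale. That scale understates changes of low genes, so the distance from the Lce3 median depends on the value added. With 0.1 added in place of 1, log2 fold changes ran between -4.15 and -2.74 for Sprr2 and between -3.93 and -2.89 for Lce3. Sprr2d stood at 7.78, 21.5, 18.7 and 35.5 FPKM in phytic acid replicates 1 to 4, against 409, 371, 125 and 432 FPKM in MC903 replicates 1 to 4. Sprr2h, at the highest mean level, stood at 42.6, 64.9, 59.5 and 60.2 FPKM in phytic acid replicates 1 to 4, against 488, 464, 171 and 509 FPKM in MC903 replicates 1 to 4. In both genes MC903 replicate 3 was well below the other MC903 libraries and still above all phytic acid libraries. The log2 fold change of Sprr2d was -3.96 ± 0.48 (SE, adjusted p = 0.00079 by limma). That of Sprr2h was -2.72 ± 0.33 (SE, adjusted p = 0.000769 by limma).

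All 10 tested Sprr2 genes fell, where 11.6% of all tested genes did. Of the 10, 8 did not overlap between the groups, where 13.0% of all tested genes were lower without overlap. Sprr2a2, Sprr2f and Sprr2i passed the filter only through their MC903 level, so these counts are a description. Sprr2b averaged 4.60 ± 2.10 FPKM with phytic acid and 54.6 ± 26.8 FPKM in MC903 skin (SD, n = 4 each). Sprr2a1 averaged 7.63 ± 7.24 FPKM with phytic acid and 78.0 ± 28.0 FPKM in MC903 skin (SD, n = 4 each). Sprr2e and Sprr2f overlapped because phytic acid replicate 4 (12.3 and 16.5 FPKM) lay above MC903 replicate 3 (10.1 and 8.07 FPKM). Sprr2f had the smallest change on the log2(FPKM + 1) scale, -2.29 ± 0.69 (SE, adjusted p = 0.0378 by limma). It was called in 2 of the 8 fits that left out 1 library. The other 9 were called in all 8. Phytic acid replicate 4 was the highest of its group in 8 of 10 genes, and MC903 replicate 3 was the lowest of its group in 10 of 10.

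Summed Sprr2 FPKM was 74.0, 125, 121 and 229 in phytic acid replicates 1 to 4, against 1557, 1517, 534 and 1653 in MC903 replicates 1 to 4. Relative to Lce1 the Sprr2 sum was 2.76% to 8.02% with phytic acid, against 27.3% to 101% in MC903 skin. Sprr2a1 and Sprr2a2 overlap in the annotation and share 94.3% and 94.7% of their 75-base stretches with other genes, and Sprr2a3 shares 47.5%, so the values of these 3 are uncertain. The largest share among the other Sprr2 genes was 6.1% (Sprr2i).

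The Sprr1 genes, cross-bridging precursors known from stressed and cornifying cells, both fell. Sprr1b stood at 21.9, 49.8, 29.3 and 41.0 FPKM in phytic acid replicates 1 to 4, against 568, 658, 157 and 664 FPKM in MC903 replicates 1 to 4. Sprr1a stood at 337, 309, 317 and 392 FPKM in phytic acid replicates 1 to 4, against 753, 662, 759 and 1162 FPKM in MC903 replicates 1 to 4. Neither gene overlapped between the groups, and MC903 replicate 3 was the lowest of its group for Sprr1b but not for Sprr1a. The log2 fold change of Sprr1b was -3.67 ± 0.45 (SE, adjusted p = 0.00082 by limma). That of Sprr1a was -1.27 ± 0.19 (SE, adjusted p = 0.00175 by limma). The ratio of Sprr1a to Sprr1b in FPKM was 6.20 to 15.4 with phytic acid, against 1.01 to 4.84 in MC903 skin, without overlap. Neither transcript shares a 75-base stretch with another gene.

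Of 4 tested wound keratin genes, 3 fell, and the median of the 4 was -4.01 on the log2 scale. The gene Krt6a had a log2 fold change of -4.02 ± 0.41 (SE) and Krt16 one of -3.99 ± 0.41 (SE). The summed level of the wound keratins was 740.3 to 1193 FPKM with phytic acid, against 3316 to 6734 FPKM in MC903 skin, where replicate 3 was lowest.

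Members outside the 4 subfamilies other than Lor, Ivl and Lce6a were not called. Crct1, a cysteine-rich gene of the complex, stood at 586, 568, 773 and 599.6 FPKM in phytic acid replicates 1 to 4, against 629.7, 1043, 597 and 762.3 FPKM in MC903 replicates 1 to 4, a log2 fold change of -0.24 (95% confidence interval -0.69 to 0.21). Kprp (keratinocyte proline-rich protein) stood at 151, 167, 161 and 108 FPKM in phytic acid replicates 1 to 4, against 132, 181, 105 and 112 FPKM in MC903 replicates 1 to 4, a log2 fold change of 0.16 (95% confidence interval -0.28 to 0.60). Sprr4 stood at 273, 167, 210.1 and 236 FPKM in phytic acid replicates 1 to 4, against 296, 145, 327 and 281 FPKM in MC903 replicates 1 to 4, a log2 fold change of -0.20 (95% confidence interval -0.78 to 0.38). The groups of all 3 genes overlapped, and none of the 3 was called in any of 16 alternative fits.

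Prr9, a proline-rich gene and the member next to Lor, was far higher in 1 library than in the rest. It stood at 5.83, 3.99, 5.76 and 9.16 FPKM in phytic acid replicates 1 to 4, against 10.1, 23.2, 845.5 and 5.31 FPKM in MC903 replicates 1 to 4. Its log2 fold change was -2.31 ± 1.27 (SE, adjusted p = 0.211 by limma), and it was -0.78 without MC903 replicate 3 (adjusted p = 0.174 by limma). The inner root sheath and hair genes were highest in the same library, and their part in the level of Prr9 was not tested.

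**Figure D3:**
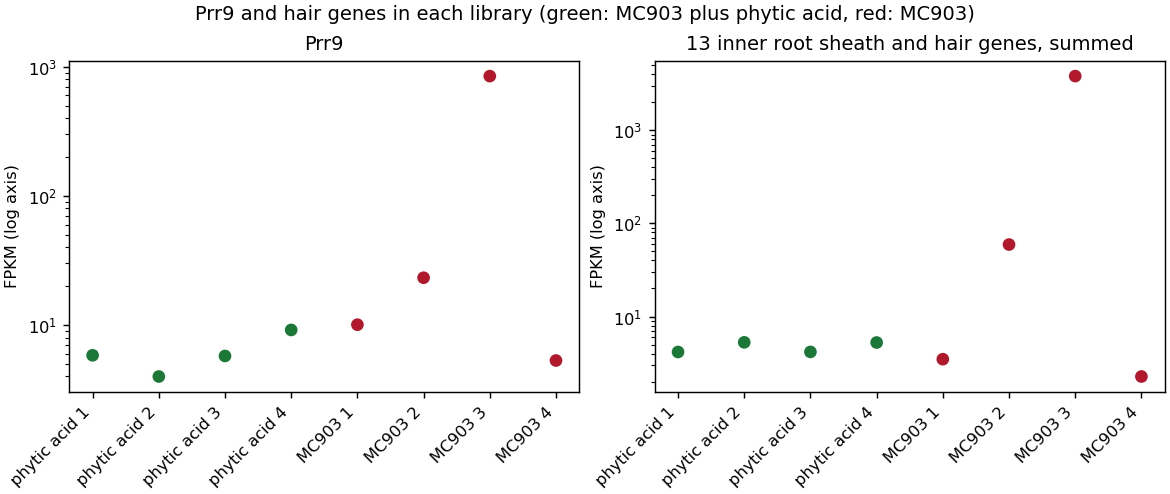
Prr9 and the summed level of 13 inner root sheath and hair genes in each library, in FPKM on a log axis, with MC903 plus phytic acid left of MC903. Both are highest in MC903 replicate 3, at 845.5 and 3819 FPKM, and next highest in MC903 replicate 2.

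The 5 members below the filter were Lelp1, Sprr3, Smcp, Sprr2j-ps and Sprr2k. Lelp1 had 0 to 2 reads in phytic acid libraries and 0 in every MC903 library, and Sprr3 had 0 to 4 reads with phytic acid and 0 to 2 in MC903 libraries. Smcp, a gene of sperm mitochondria, had 6 to 38 reads with phytic acid and 19 to 43 in MC903 libraries. Sprr2j-ps had 0 to 48 reads with phytic acid and 8 to 36 in MC903 libraries. Sprr2k had 0 to 4 reads with phytic acid and 14 to 86 in MC903 libraries, without overlap, and was called lower when no expression filter was used (log2 fold change -1.61, adjusted p = 0.0182 by limma).

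Along the chromosome, directions largely followed the subfamilies, whose genes lie next to each other, and no test of clustering was run. The 10 tested Sprr2 genes, Sprr1b and Sprr1a, 133 to 403 kb from the start site of Lor, all fell. Ivl, Lce6a and the 5 Lce1 genes from Lce1a1 to Lce1d, 491 to 604 kb away, had fold changes above 0. Lce1e to Lce1i, 626 to 696 kb away, had fold changes of -0.42 to -0.09, none of them called. Beyond them the signs alternated, at 0.68 for Lce1j, -0.53 for Lce1k, 0.16 for Kprp and 1.09 for Lce1l, 707 to 768 kb away. The Lce3 genes, 843 to 909 kb away, all fell. Lor (2.30) and its neighbour Prr9 (-2.31, not called) had opposite signs. Lce1m lies 2.1 kb from Crct1 on the same strand, and their log2 fold changes were 4.27 and -0.24.

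**Figure D4:**
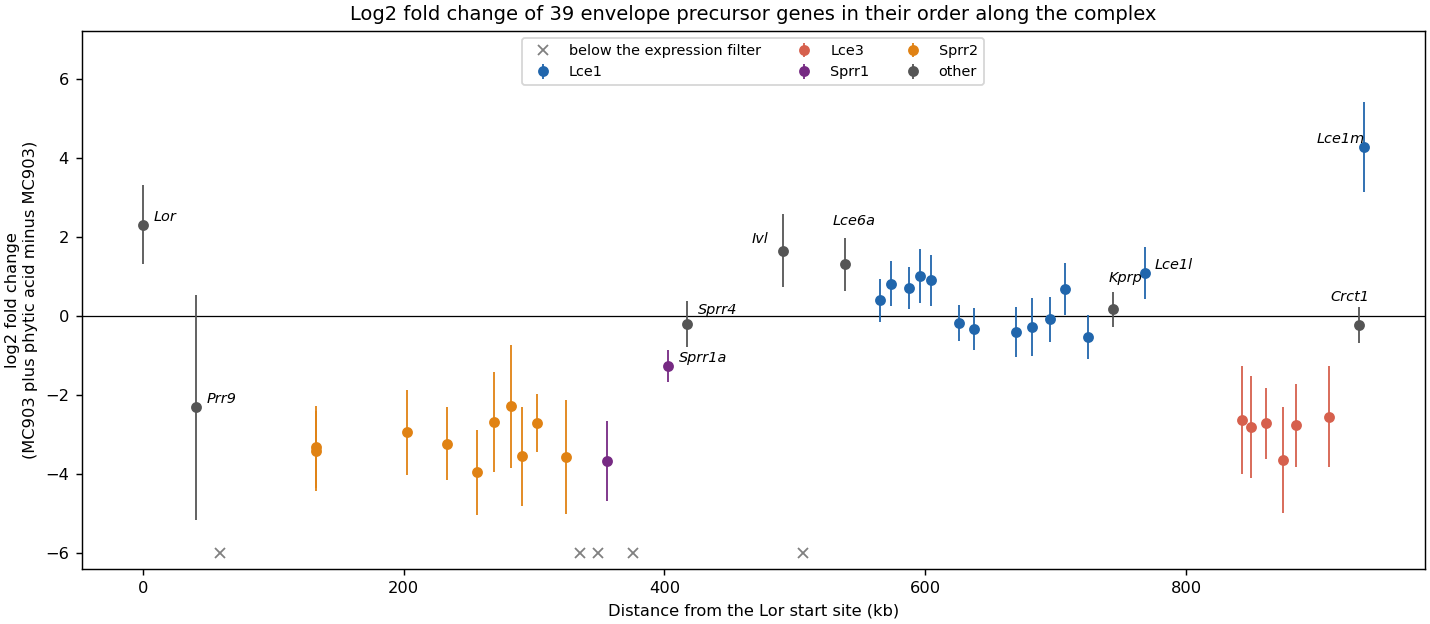
Log2 fold change (MC903 plus phytic acid minus MC903) of 39 members against distance from the Lor start site in kb, with 95% confidence intervals, and marks for the 5 members below the filter. The Sprr2 and Lce3 genes lie below 0, the Lce1 genes lie on both sides of 0, and Lor, Ivl, Lce6a and Lce1m lie above it.

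RefSeq promoters (250 bases before to 50 after the start site, GRCm38.p6) were matched for 39 of the 44 members, all but Crct1, Kprp, Lce1f, Sprr2g and Sprr2j-ps. The AP-1 site TGACTCA, counted on both strands, was in 7 of 10 Sprr2 promoters, 182 to 198 bases before the start, and in those of Sprr1a, Lor, Ivl and Prr9. Sprr2a1, Sprr2a2 and Sprr2a3 had no match, and their upstream windows were 100% identical where compared, so these absences are not separate observations. The AP-1 site was not placed by the GENCODE start sites, which differ from the RefSeq ones for these genes. The AP-1 site was in 0 of 13 Lce1 and 0 of 6 Lce3 promoters, and in 5.17% of all 27025 promoters. Genes that rose (Lor, Ivl) and genes that fell (Sprr1a, Sprr2d) thus both had a match, shown by capitals in the sequences above, and Sprr1b and Lce3d had none. TATAAA or ATAAAA (these overlap as TATAAAA) lay 20 to 45 bases before the start in 12 of 13 Lce1, 6 of 6 Lce3, 2 of 2 Sprr1 and 7 of 10 Sprr2 promoters, against 3.53% of all promoters. With TATAAA itself these were 2 Lce1, 0 Lce3, 2 Sprr1 and 7 Sprr2 promoters. ATAAAA was added after these sequences were seen, so the contrast with 3.53% is a description and no test. Upstream windows also resembled each other, so promoters of a subfamily are not independent. Median identity was 44.85% within Lce1 (highest 85.9%) and 48% within Sprr2 (highest 100%), against 33.05% between subfamilies.

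Other motifs were searched on both strands of the same windows. The antioxidant response element core TGACNNNGC was in 7 of 39 member promoters (17.9%) and in 12.47% of all. The C/EBP site TTGCNNAA was in 2 of 39 (5.1%) and in 10.75% of all, and the grainyhead-like site AACCNGTT in 0 of 39 and in 2.01% of all. A match or its absence describes these letters in this window and says nothing of whether a factor binds.

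**Figure D5:**
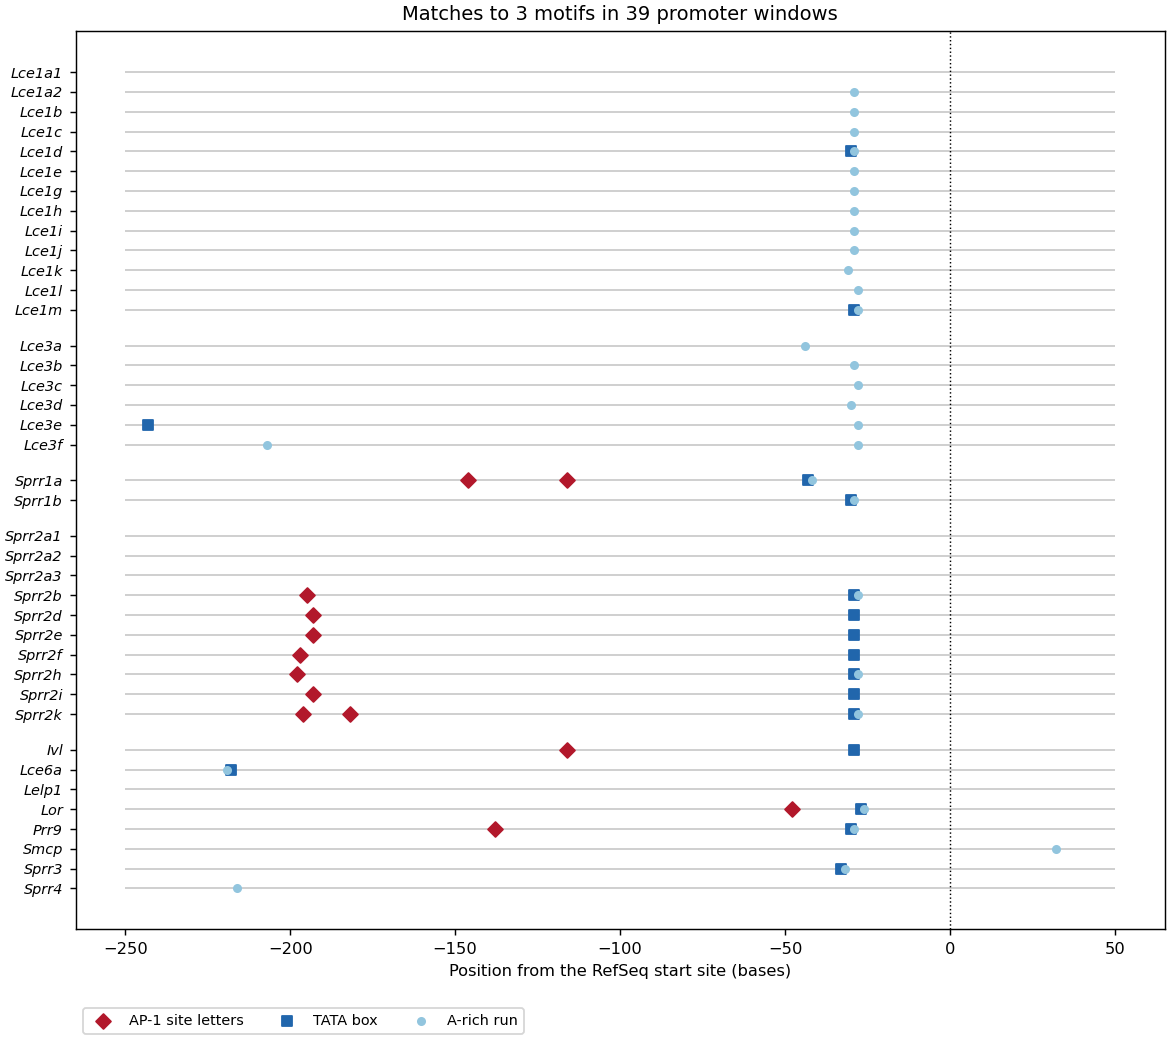
Matches to the AP-1 site, the TATA box and the A-rich run in 39 promoter windows, by position in bases from the RefSeq start site. AP-1 matches lie 182 to 198 bases before the start in 7 Sprr2 promoters and are missing in Lce1 and Lce3 promoters.

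Among 30 other cornified envelope and granular layer genes, 7 rose and 10 fell, and the median log2 fold change was -0.16. Of these, Tchh (trichohyalin) had a log2 fold change of -4.67 ± 0.22 (SE) and Rptn (repetin) one of -3.54 ± 0.28 (SE). Flg2 (filaggrin 2), chosen after its values were seen, went the other way at 2.64 ± 0.29 (SE). Tchh, Rptn and Flg2 all encode S100-fused proteins, so that class did not move as a whole. Of 29 tested transcription factors known to act on epidermal differentiation genes, 4 rose and 5 fell, and the median was -0.12. Ahr, the aryl hydrocarbon receptor, rose and averaged 27.1 ± 3.20 FPKM with phytic acid and 11.9 ± 2.35 FPKM in MC903 skin (SD, n = 4 each).

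The summed level of the family overlapped between the groups, while the share of it held by each of the 4 subfamilies did not. The summed FPKM of all 44 members was 4721 to 6197 with phytic acid, against 5648 to 8533 in MC903 skin. Of that sum, Lce1 genes made up 56.7% to 62.5% with phytic acid, against 24.2% to 44.5% in MC903 skin. Lce3 genes made up 0.177% to 0.633% with phytic acid, against 1.17% to 5.97% in MC903 skin. The share of Sprr1 genes was 5.58% to 8.67% with phytic acid, against 15.5% to 27.0% in MC903 skin, and that of Sprr2 genes was 1.57% to 4.58% with phytic acid, against 9.46% to 24.6% in MC903 skin. The remaining 10 members made up 29.0% to 33.95% with phytic acid, against 18.4% to 38.6% in MC903 skin, and this share overlapped. Since shares add to a whole, they are not independent of each other.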

How the data were processed

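RNA was measured in 8 mouse skin libraries, 4 per group, extracted with TRIzol and prepared with a SMARTER mRNA-Seq kit, per the labels' protocols. The authors deposited FPKM per gene and library. Among tools, cutadapt, HISAT2, TopHat2 and DESeq appear in the submitters' processing notes, with the build mm10. The tool behind the FPKM, its annotation, strand setting and versions are not stated there. Of 21959 entries, 51 had no name (0.016% to 0.024% of a column sum) and were left out of the tests, and 21 names stood on more than 1 entry, leaving 21885 genes. FPKM multiplied by GENCODE exon length gave whole reads, within 0.05, in all libraries for 17509 of 17980 genes (97.4%). These reads count mates of a pair, so they are not independent molecules.

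Values were tested as log2(FPKM + 1), which understates changes of low genes, with limma 3.58.1 (trend) in R 4.3.3. All 12165 genes with at least 1 FPKM in at least 4 libraries entered, with group as the single factor, two-sided, adjusted by Benjamini-Hochberg and called under 0.05. The procedure was tested on simulated data, but the outcome is not given here and lends no weight to these calls. The members and lists were chosen with earlier results of these data known. Named were Lor, Ivl, the 4 members of smallest p and the one of highest mean in each subfamily, every other tested member outside the subfamilies, and up to 2 called genes of each other list. Further members are named for a count, a position or an exception, after their values were seen. The ATAAAA motif was added after the sequences were seen.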

Additional observations from a re-analysis of the deposited data

Results flagged for a closer look

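In 54 sets of 4 libraries (22 named genes and 5 sums, in each group), 7 had a highest or lowest library far from the other 3 by Dixon's criterion, which chance meets in about 5% of sets. Phytic acid replicate 4 was high for Lce3b (3.62 FPKM), Sprr2a1 (18.5 FPKM) and the Sprr1 sum (433 FPKM). Phytic acid replicate 3 was high for Crct1 (773 FPKM). MC903 replicate 3 was low for Sprr2h (171 FPKM) and the Sprr2 sum (534 FPKM), and high for Prr9 (845.5 FPKM).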

How the results depend on the processing

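Each count was recomputed in 16 alternative fits. Of the 18 members called lower, 17 were called lower in all 16, and Sprr2f in 9. Of the 8 called higher, Lor, Lce6a and Lce1m were called in all 16. The count of members called higher was 4 with no filter, 5 with median-of-ratios scaling, 5 centred on basal keratinocyte genes (chosen after seeing the data), and 3 to 11 with 1 library left out (3 without MC903 replicate 1, 4 when MC903 replicate 4 or any of phytic acid replicates 1 to 3 was left out, 5 without phytic acid replicate 4, 11 without MC903 replicate 2); the cause was not tested. The count of members called lower was 17 to 18 with 1 library left out. Over all genes, 1722 rose and 1412 fell; 1098 rose with a mean FPKM of at least 5, where fewer genes were tested. With 1 library left out, 1072 to 2418 rose and 941 to 1561 fell. Medians ran between 0.33 and 0.78 for Lce1, -3.49 and -2.33 for Lce3, -2.74 and -2.29 for Sprr1 and -3.62 and -3.01 for Sprr2.

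No pairing by replicate number was seen: deviations of same-numbered libraries correlated at -0.28, -0.10, -0.29 and 0.23, and 1 of 4 phytic acid libraries was closest to its own number. So few values cannot exclude a weak pairing. With a replicate block, 1098 genes rose, and 7 members rose and 18 fell. Of 352 values of the 22 named genes, 324 kept their side of the threshold and 0 changed sign. Of the rest, 27 were lost (Ivl, Lce1l, Lce1c and Lce1b) and 1 was gained (Lce1a1). Low counts with phytic acid limit several tested members, such as Lce3a, Lce3b, Lce3e, Lce3f, Sprr2e, Sprr2f and Sprr2i. The members below the filter are limited by low counts as well.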
